A study of Mus musculus with 12 samples.

Results

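Nuclear long noncoding RNAs were followed in mouse B cells that were activated and then exposed to a DNA-damaging drug, with 5 genes in the set: Neat1, Malat1, Pvt1, Mir17hg and Kcnq1ot1. They were taken by gene name from the gene-level table of normalised counts, in which each name had 1 row, out of 29486 genes in all. All 5 passed the filter of at least 10 counts in at least 4 libraries, which left 15571 genes. The cells were splenic B cells of C57BL/6Babr mice in 3 conditions of 4 libraries each. LPS cells were activated with the bacterial mitogen lipopolysaccharide (10 µg/ml) for 48 h. LE cells had the same activation followed by 4 h of etoposide (20 µM), a poison of topoisomerase II that leaves double-strand breaks in DNA. LEKU cells had LPS for 47 h, then KU55933 (10 µM), an inhibitor of the kinase ATM, for 1 h before the same 4 h of etoposide. All 3 conditions thus share LPS activation, there was no condition with KU55933 alone, and it is not given in the sources used here whether LPS cells were kept for the further 4 h. The comparison of LE with LPS addresses the response to etoposide, and that of LEKU with LE the difference with KU55933 when etoposide is present. Without KU55933 alone, a changed response to etoposide cannot be told apart from an effect of the inhibitor itself.

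The 12 columns held between 20400994 and 30575195 counts each. Within a condition the columns were exact multiples of each other (their log2 ratios varied by at most 2.8e-14 over genes), so each condition carries 1 fitted mean per gene times a depth factor per library, and no spread between replicates. For this reason no test between conditions was possible: differences are given as log2 ratios of condition means with 95% counting intervals, which cover counting error only, and a gene is called higher or lower when it lies past 1.5-fold (0.58 on the log2 scale). Defining B cell transcripts were abundant, from 1115 to 31239 scaled counts for Cd79a, Cd79b, Ms4a1 and Pax5, and their summed level was 80466 in LPS, 50451 in LE and 47494 in LEKU. The 5 T cell and 2 NK cell markers in the table lay between 0.47 and 1.95 counts. The summed level of 5 macrophage markers was 312, 255 and 253 counts, and that of 4 red cell markers 70.4, 90.5 and 45.5; the part of these shifts in the results was not tested. In bulk RNA, fewer cells of a type and less RNA per cell cannot be told apart.

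Long noncoding RNAs that stay in the nucleus act as scaffolds, as host transcripts of small RNAs or on chromatin near their own gene. Neat1 is the backbone of paraspeckles, nuclear bodies that hold proteins and edited RNAs. Malat1 gathers in nuclear speckles, where splicing factors are stored. Pvt1 is transcribed next to the Myc oncogene, Mir17hg is the primary transcript of the miR-17-92 cluster, which promotes B cell survival and is amplified in lymphoma, and Kcnq1ot1 is a paternally expressed imprinted RNA that silences neighbouring genes on its own chromosome copy in the placenta and embryo.

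In GRCm38, Neat1 (ENSMUSG00000092274) lies at chr19:5824708-5845478 and Malat1 (ENSMUSG00000092341) at chr19:5795690-5802672, both on the minus strand and annotated as lincRNA, with starts 42.8 kb apart. Pvt1 (ENSMUSG00000097039, lincRNA, plus strand) covers chr15:62037986-62378096 and has 10 annotated transcripts whose merged exons add up to 7.00 kb of a 340 kb locus. Mir17hg (ENSMUSG00000089726, lincRNA, plus strand) lies at chr14:115042879-115046727. Kcnq1ot1 (ENSMUSG00000101609) is a single unspliced antisense transcript of 93.1 kb at chr7:143203458-143296549 on the minus strand, inside Kcnq1 on the plus strand. Whether the counting used strand is not given in the sources used here, but Kcnq1 itself stood at 0.077 to 0.086 scaled counts, and the 1 measured gene on the strand opposite to Pvt1, the pseudogene H2afy3, at 11.7, 7.10 and 3.00 counts in LPS, LE and LEKU.

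The sequences that matter most for reading these values are the 3′ ends, because the libraries were made from polyadenylated RNA and some nuclear RNAs do not end in a conventional poly(A) tail. The last 60 bases of the annotated transcripts are given 5′ to 3′ with the polyadenylation signal AATAAA in capitals. Neat1-202 is the short Neat1 form, which is polyadenylated.
Neat1-202: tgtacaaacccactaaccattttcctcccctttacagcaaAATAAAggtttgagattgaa
Malat1-201: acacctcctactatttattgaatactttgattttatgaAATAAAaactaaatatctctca
Pvt1-201: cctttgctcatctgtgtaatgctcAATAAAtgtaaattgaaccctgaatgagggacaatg
Mir17hg-201: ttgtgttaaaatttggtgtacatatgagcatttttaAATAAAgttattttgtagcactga
Kcnq1ot1-201: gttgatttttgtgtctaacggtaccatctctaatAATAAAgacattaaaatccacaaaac

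These 5 ends all held the signal, which began 20 to 36 bases before the end, against 27.1% of all 141767 GENCODE M21 transcripts of any type (sense strand searched). They belong to chosen transcripts, and the other annotated transcripts of Neat1 (4 in all), Malat1 (4) and Pvt1 (10) were not examined. Of the ends examined, the exception was Neat1-201, the long form of 20771 bases, whose last 60 bases held no AATAAA. Its end, and an internal stretch of Malat1 that ends 292 bases before the annotated 3′ end, carry a different arrangement. Here a U-rich motif (TTTGCTTTT) and a downstream A-rich motif (AAAGCAAAA), the elements known to pair into a stabilising triple helix after cleavage by RNase P, are in capitals in 80 bases of each.
Neat1-201: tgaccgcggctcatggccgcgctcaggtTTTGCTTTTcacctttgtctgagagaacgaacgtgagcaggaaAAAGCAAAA
Malat1-201: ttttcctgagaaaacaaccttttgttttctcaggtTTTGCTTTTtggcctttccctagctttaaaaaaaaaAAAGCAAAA
Both motifs in this order, at most 60 bases apart, occurred in 7 of 141767 transcripts and in 6 of 55450 genes (0.0108%), with Neat1 and Malat1 among them. A gene-level count does not separate the short from the long form of Neat1, and the capture of RNAs that end at the A-rich motif by the library protocol was not measured.

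Mir17hg has 2 exons, of 79 and 3457 bases, and all 6 hairpins of the cluster lie in the second exon, from 115043671 to 115044506 on chr14. The host count therefore reports the primary transcript and not the small RNAs, and none of the 6 hairpins was a row of the table. The mature miRNAs (RefSeq, GRCm38.p6) are given with the seed, bases 2 to 8, in capitals and grouped by shared seed.
miR-17-5p: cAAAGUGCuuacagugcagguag
miR-20a-5p: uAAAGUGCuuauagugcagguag
miR-18a-5p: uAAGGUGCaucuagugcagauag
miR-19a-3p: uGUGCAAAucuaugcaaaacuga
miR-19b-3p: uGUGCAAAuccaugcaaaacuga
miR-92a-3p: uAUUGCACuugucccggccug
The seed AAAGUGC was shared by miR-17-5p and miR-20a-5p and GUGCAAA by miR-19a-3p and miR-19b-3p, while miR-18a-5p and miR-92a-3p each had a seed of their own.

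Per kilobase of merged exon the members kept the same order in every condition. In LPS, Malat1 stood at 2000 scaled counts per kb, Mir17hg at 333, Neat1 at 285, Pvt1 at 53.0 and Kcnq1ot1 at 7.35. In LE the levels were 2432, 358, 119, 42.0 and 5.31 counts per kb in the same order, and in LEKU 2418, 212, 147, 24.4 and 3.56. The position of Neat1 depends on its form: if all its reads came from the short form of 3.00 kb, its level would be 1972, 822 and 1017 counts per kb in LPS, LE and LEKU, above Mir17hg in each. By count without length, Malat1 ranked 4, 1 and 2 in LPS, LE and LEKU among the 1096 noncoding genes that passed the filter, Neat1 11, 21 and 20, and Mir17hg 34, 34 and 49. Whether adjacent levels differ beyond the spread between replicates could not be tested. The values given per library are 1 fitted mean times a depth factor each, so whether conditions overlap in them reflects the depth factors as well as the means and adds no support to a difference.

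**Figure D1:**
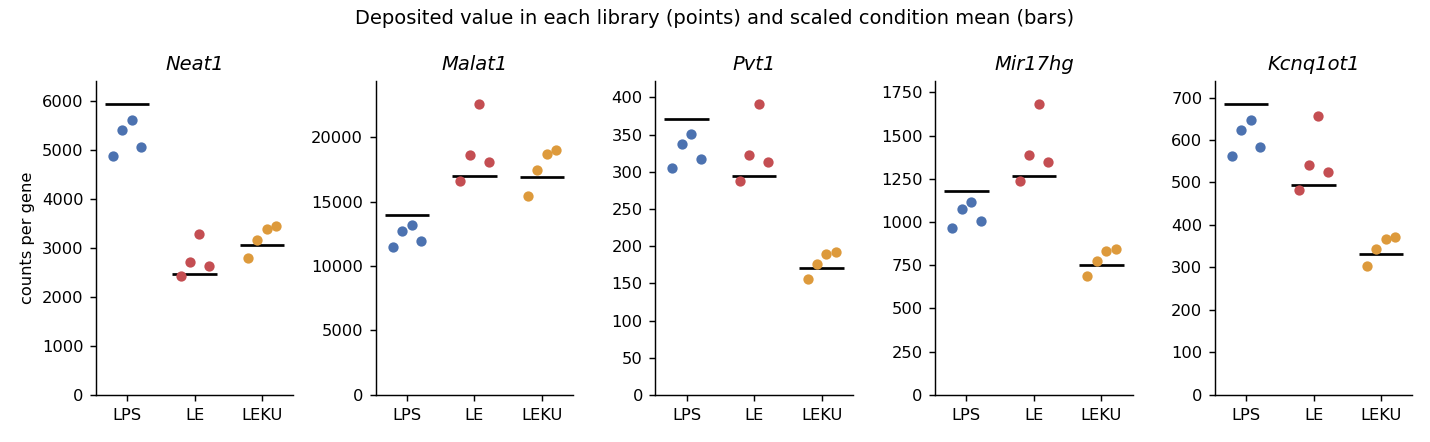
Counts of each long noncoding RNA (vertical axis, counts per gene, from 0) in the 4 libraries of LPS, LE and LEKU (points, as deposited) with the condition mean after depth scaling (black bars). The Neat1 points of LPS (4862 to 5611) lie above all LE and LEKU points, and the Pvt1, Mir17hg and Kcnq1ot1 points of LEKU lie below those of LPS and LE. The scatter within a condition shows depth only, and the separation of points between conditions carries depth as well as the means.

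Neat1 was the member with the lowest LE to LPS ratio. Its deposited counts were 4862, 5394, 5611 and 5056 in the 4 LPS libraries, 2416, 2708, 3280 and 2626 in LE, and 2800, 3157, 3383 and 3438 in LEKU. LPS did not overlap with either etoposide condition, while LE and LEKU overlapped, in these unscaled values that carry depth as well as the means. After depth scaling the means were 5925 (95% counting interval 5845 to 6006), 2470 (2424 to 2516) and 3055 (3003 to 3109). Neat1 was thus 2.40-fold lower in LE than in LPS, a log2 ratio of -1.26 (-1.30 to -1.23), and 3.23% of all genes had a lower ratio. It was the 1 member past 1.5-fold in that comparison, in which 16.6% of all genes were lower and 21.7% were higher. With the ATM inhibitor Neat1 was 1.24-fold higher than in LE, at 0.31 (0.27 to 0.34), which is inside the limit, and it was still 1.94-fold lower than in LPS, at -0.96 (-0.99 to -0.92).

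The paraspeckle proteins measured alongside gave a lower median than all genes. In LE against LPS this was shared by the lists of nuclear speckle proteins (median -0.45) and of nuclear RNA decay and 3′ end maturation (-0.29). Of the 15 paraspeckle genes, all of which passed the filter, 5 were lower and 0 higher in LE than in LPS. Their median log2 ratio was -0.33 beside -0.02 over all genes. The median of the 15 turned to 0.01 in the columns as deposited, without depth scaling, and the number lower was 2 to 7 in the other scalings. Hnrnpr was at -1.18 and Pspc1, a core protein of the bodies, at -1.12. Tardbp, the RNA-binding protein TDP-43, was at -0.90, and Cpsf6, a cleavage factor subunit, at -0.69. Nono, which with Sfpq is essential for paraspeckles, was at -0.60. In LEKU against LE, 1 of 15 was lower, Sfpq at -0.64, and none was higher (median -0.20 beside -0.04). Against LPS, 7 of 15 were lower and 0 higher in LEKU (median -0.56 beside 0.01), with 4 to 8 lower in the other scalings. Over all genes 16.6% were lower and 21.7% higher in LE against LPS. These shares were 11.7% and 7.06% in LEKU against LE, and 16.1% and 20.1% in LEKU against LPS.

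Ratios of 2 genes within a library are not changed by depth factors, although quantile normalization, which moves each gene by its rank, does change them. The count of Neat1 was 4.53, 4.12 and 5.80 times that of Pspc1 in LPS, LE and LEKU, and 4.10, 4.18 and 6.30 times after quantile normalization. Relative to Sfpq it was 0.465, 0.215 and 0.414, so that the LEKU value lay near that of LPS, and relative to Nono 0.457, 0.288 and 0.326.

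Malat1 was higher in LE than in LPS, where Neat1 was lower. Its deposited counts were 11461, 12715, 13227 and 11918 in LPS, 16617, 18625, 22558 and 18056 in LE, and 15474, 17450, 18695 and 19002 in LEKU. In these unscaled values, which carry depth as well as the means, the LPS libraries were all below the others, and LE and LEKU overlapped. The scaled means were 13967 (13844 to 14091), 16985 (16864 to 17106) and 16887 (16763 to 17012). Malat1 was 1.22-fold higher in LE than in LPS, at 0.28 (0.27 to 0.30), inside the 1.5-fold limit, with 68.4% of all genes at lower ratios. Between LEKU and LE the log2 ratio was -0.01 (-0.02 to 0.01), and it turned positive in 4 of 6 other scalings, up to 0.06. The 1.21-fold higher level in LEKU than in LPS, at 0.27 (0.26 to 0.29), was of the size seen without the inhibitor; both use the same LPS libraries. Although the genes are neighbours, Neat1 relative to Malat1 was 0.424 in LPS, 0.145 in LE and 0.181 in LEKU.

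Few nuclear speckle genes were past the limit, although their median in LE against LPS was also below that of all genes (-0.02). Of 14, 2 were lower and 1 higher in LE against LPS (median -0.45), beside 16.6% and 21.7% of all genes, and these counts were 0 and 2 after quantile normalization, 0 and 3 in the columns as deposited and 6 and 0 with median-of-ratios factors over all genes. For the same 14 genes, none was past the limit in LEKU against LE (median -0.05, which was 0.03 after quantile normalization), and 4 were lower in LEKU against LPS (median -0.40), a count of 1 to 4 in the other scalings. The splicing factors Srsf3 and Srsf1 had the lowest LE to LPS ratios, -0.79 and -0.70, and Srsf5 the highest, 0.60. Srrm2, a scaffold protein of speckles, was at -0.48, and Son, the other scaffold, at 0.26. Genes of nuclear RNA decay and 3′ end maturation stayed inside the limit in LE (0 of 11 in either direction, median -0.29, which was 0.05 in the columns as deposited) and in LEKU against LE (0 of 11, median -0.19). Of all genes 7.06% were higher and 11.7% lower in LEKU against LE. Lower in LEKU than in LPS were 4 of 11: Dis3, an exosome nuclease, at -0.77, Zfc3h1 at -0.64, and Xrn2 and the helicase gene Skiv2l2 both at -0.59. Over all genes 16.1% were lower there, and the count of 4 was 0 or 1 in 5 of the 6 other scalings and 5 with median-of-ratios factors over all genes. Mettl16, which binds the Malat1 triple helix, had ratios of -0.29, -0.30 and -0.58 in LE against LPS, LEKU against LE and LEKU against LPS.

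**Figure D2:**
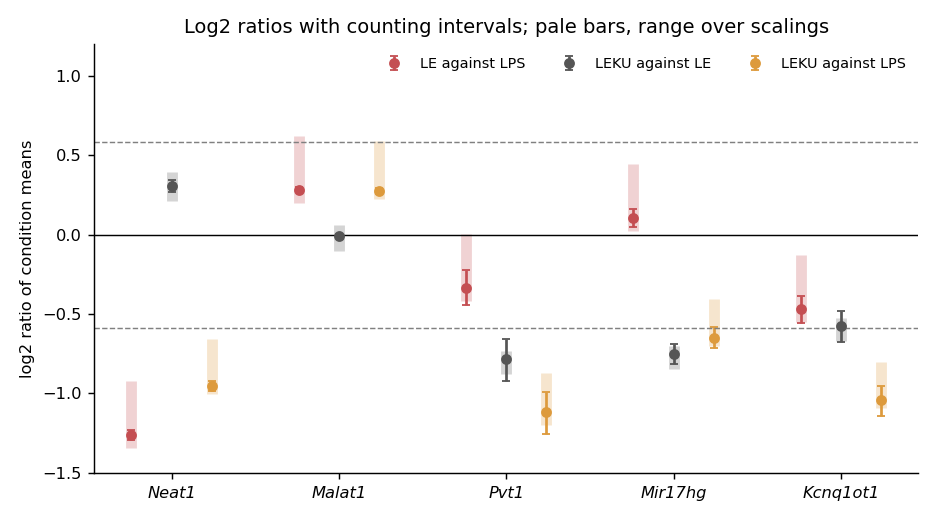
Log2 ratio of condition means (vertical axis) for the 5 long noncoding RNAs in 3 comparisons, with 95% counting intervals (error bars), the range over 6 other scalings (pale bars) and the 1.5-fold limits (dashed). Neat1 has the lowest LE to LPS point (-1.26), whereas Pvt1, Mir17hg and Kcnq1ot1 have negative LEKU to LE points of -0.78, -0.75 and -0.58.

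Pvt1 was lowest in LEKU. Deposited counts were 304, 338, 351 and 317 in LPS, 288, 323, 391 and 313 in LE, and 156, 176, 189 and 192 in LEKU. LEKU was below every library of the other conditions, which overlapped with each other. Such separation of unscaled values carries depth as well as the means. The scaled means were 371 (351 to 392), 294 (279 to 311) and 171 (158 to 183). The LE to LPS log2 ratio was -0.33 (-0.45 to -0.22), a 1.26-fold lower level, but it was 0.00 in the columns as deposited. LEKU was 1.72-fold lower than LE, at -0.78 (-0.92 to -0.65), and 2.17-fold lower than LPS, at -1.12 (-1.26 to -0.99). Of all genes 11.7% were lower past the limit in LEKU against LE and 16.1% in LEKU against LPS, and 7.33% had a LEKU to LE ratio below that of Pvt1.

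Myc, whose start lies 52.6 kb before that of Pvt1, had another pattern. It stood at 3747 scaled counts in LPS, 1560 in LE and 1715 in LEKU, with a log2 ratio of -1.26 in LE against LPS, where Pvt1 was at -0.33, and of 0.14 in LEKU against LE, where Pvt1 was at -0.78. Pvt1 relative to Myc was accordingly 0.0990 in LPS, 0.189 in LE and 0.0994 in LEKU. The ratio was 1.90-fold higher in LE than in LPS and 1.00-fold that of LPS in LEKU, whatever the depth factors, but 1.67-fold and 0.822-fold that of LPS after quantile normalization. Fam84b, the coding neighbour upstream of Myc, starts 1184 kb from the start of Pvt1. It was at -0.52 in LE against LPS and 0.89 in LEKU against LE. Gsdmc, at 1771 kb, did not pass the filter.

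**Figure D3:**
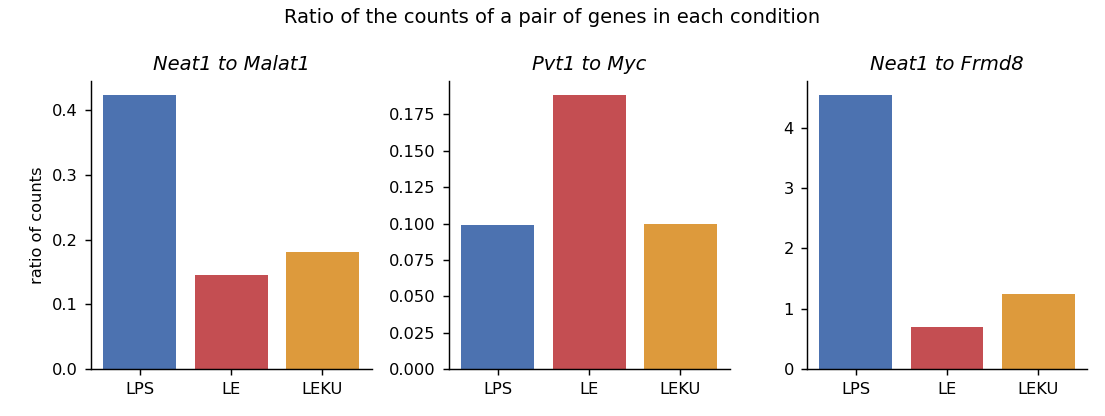
Ratio of the counts of 2 genes in LPS, LE and LEKU (bars, linear axes from 0), a quantity that depth factors per library do not change. Neat1 relative to Malat1 is highest in LPS (0.424), Pvt1 relative to Myc is highest in LE (0.189), and Neat1 relative to Frmd8 goes from 4.55 in LPS to 0.699 in LE and 1.24 in LEKU.

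Mir17hg was close to its LPS level in LE and lower in LEKU. Deposited counts were 967, 1072, 1116 and 1005 in LPS, 1238, 1388, 1681 and 1345 in LE, and 688, 776, 832 and 845 in LEKU. The 3 conditions did not overlap in these unscaled values, with LE highest. Depth enters here, with factors of 0.82 to 0.95 in LPS, 0.98 to 1.33 in LE and 0.92 to 1.13 in LEKU. The scaled means were 1178 (1143 to 1214), 1266 (1233 to 1299) and 751 (725 to 778), so the LE to LPS log2 ratio was 0.10 (0.05 to 0.16). LEKU was 1.68-fold lower than LE, at -0.75 (-0.82 to -0.69), with 7.89% of all genes at a lower ratio. Against LPS it was 1.57-fold lower, at -0.65 (-0.72 to -0.58), a value that came inside the 1.5-fold limit in 4 of the 6 other scalings, with -0.40 as the ratio nearest to 0.

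Known transcriptional regulators of the cluster were measured with it. Of 6 genes, 5 passed the filter, and Mycn did not. In LE against LPS, 3 of 5 were lower, Myc at -1.26, its partner Max at -0.86 and E2f2 at -0.72. In LEKU against LE, 1 of 5 was lower: E2f3, at -0.72, had scaled counts of 1153, 1111 and 674 in LPS, LE and LEKU. All but E2f1, 4 of 5, were lower in LEKU against LPS. In the other scalings the number lower was 1 to 3 in LE and 2 to 4 in LEKU against LPS. Over all genes 16.6% were lower in LE against LPS, 11.7% in LEKU against LE and 16.1% in LEKU against LPS.

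Of 10 genes reported elsewhere as targets of the cluster's miRNAs, 4 were higher and 2 lower in LE against LPS (median 0.08, which was -0.01 with median-of-ratios factors over all genes). E2f1, E2f2 and E2f3 are in this list and in that of the regulators, so the 2 lists are not independent. Cdkn1a, an inhibitor of the cell cycle that the authors describe as p53-dependent, had the largest ratio at 5.02, followed by the pocket protein gene Rbl2 at 1.11. Cyld was at 0.99, Bcl2l11, which encodes the death-promoting Bim, at 0.88, and Tgfbr2 at -1.04. In LEKU against LE, where the host transcript was lower, 0 of 10 targets were higher and 1 was lower, with a median of -0.33. The lower gene was E2f3, at -0.72, already counted among the regulators. In LEKU against LPS, 3 were higher and 3 lower, with a median of -0.18 that was positive with library totals and in the columns as deposited. Over all genes 21.7% were higher and 16.6% lower in LE against LPS. These shares were 7.06% and 11.7% in LEKU against LE, and 20.1% and 16.1% in LEKU against LPS. The miRNAs were not measured. Of 5 other genes with names of the form Mir...hg, 2 passed the filter. Mir142hg was at -0.66 in LE against LPS and 0.32 in LEKU against LE, and Mir22hg at 0.28 and 0.06. Hosts of miRNAs with other names were not in this list, among them Dleu2, at -0.81 and -0.55.

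Kcnq1ot1 was lower in LE than in LPS and lower again in LEKU. Deposited counts were 561, 623, 648 and 584 in LPS, 483, 542, 656 and 525 in LE, and 304, 342, 367 and 373 in LEKU. The LEKU libraries were below all others, and LPS and LE overlapped, in unscaled values that carry depth as well as the means. The scaled means were 684 (657 to 712), 494 (474 to 515) and 331 (314 to 349). The LE to LPS log2 ratio was -0.47 (-0.55 to -0.39), inside the limit. The LEKU to LE ratio of -0.58 (-0.68 to -0.48), a 1.49-fold lower level, was just inside it but past it after quantile normalization (-0.59) and in the columns as deposited (-0.67). LEKU was 2.06-fold lower than LPS, at -1.04 (-1.14 to -0.95).

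Several genes near Kcnq1ot1 were at very low counts. Kcnq1, Slc22a18 and Phlda2 each stood at 0.0765 to 0.175 scaled counts, and Cdkn1c, a cell cycle inhibitor, stood at 3.80, 11.5 and 9.09 counts in LPS, LE and LEKU. Further away, Cd81, a part of the B cell co-receptor, was at 3258, 9916 and 8006 counts, a log2 ratio of 1.61 in LE against LPS, and Trpm5 was at 1.76, from 16.6 to 58.6 counts. Tspan32 was at -0.78 in LE against LPS and 0.87 in LEKU against LE, and Nap1l4 at -0.02 and -0.32. Tssc4 was at 0.53 and -0.20.

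Around Neat1 and Malat1 the coding genes likewise went in different directions. Frmd8, the nearest by start at 29.8 kb from Neat1, stood at 1302, 3534 and 2461 scaled counts, a log2 ratio of 1.44 in LE against LPS where Neat1 was at -1.26. Ehbp1l1 was at -1.16 and Slc25a45 at -0.67, and the latter was at 0.75 in LEKU against LE. Tigd3 was at 0.67 and -0.76 in these comparisons. Map3k11 and Ltbp3 were at 0.27 and 0.37 in LE against LPS. Over the 14 neighbour genes of the 5 loci that passed the filter, of 20, 5 were higher and 4 lower in LE against LPS, with a median of 0.32. In the other scalings 3 to 8 were higher and 2 to 5 lower. In LEKU against LE, 3 were higher and 1 lower, with a median of -0.10. The counts were 4 higher and 2 lower in LEKU against LPS, with a median of 0.30, and 3 to 6 were higher in the other scalings. Of all genes 21.7% were higher and 16.6% lower in LE against LPS. Those shares were 7.06% and 11.7% in LEKU against LE, and 20.1% and 16.1% in LEKU against LPS. Cdkn1c passed the filter through LE, where it was highest. Without it, 4 of 13 were higher and 4 lower in LE against LPS, 3 and 1 in LEKU against LE, and 3 and 2 in LEKU against LPS, with medians of 0.27, 0.00 and 0.27.

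**Figure D4:**
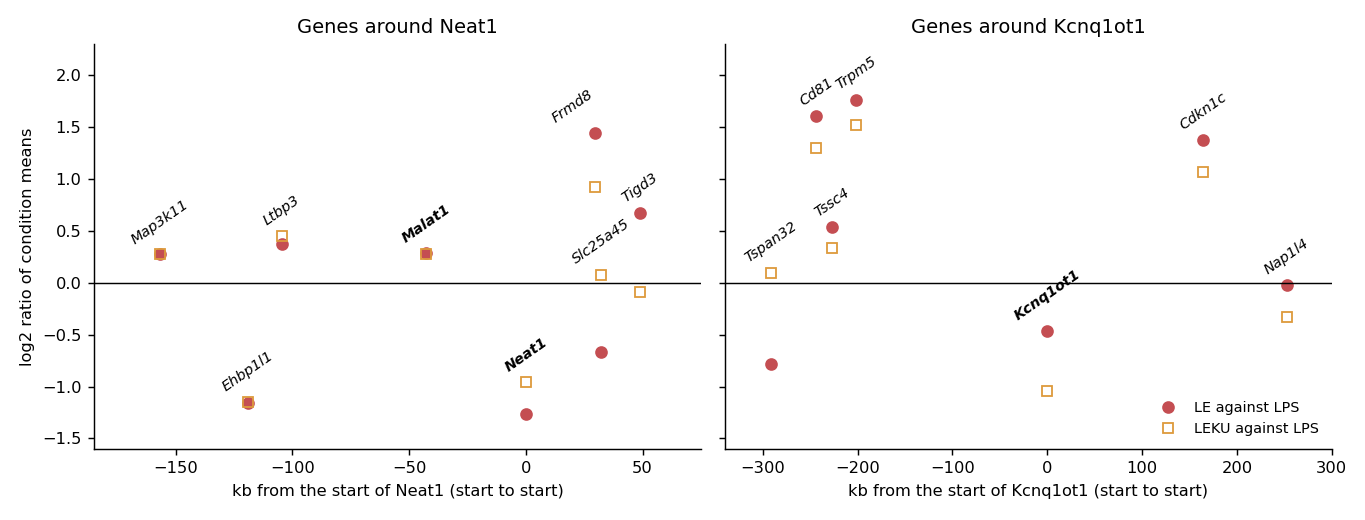
Log2 ratio of condition means (vertical axis) against the distance in kb between gene starts, for genes around Neat1 (left) and Kcnq1ot1 (right) that passed the filter, in LE against LPS (circles) and LEKU against LPS (squares). Frmd8, at 29.8 kb from Neat1, has an LE to LPS ratio of 1.44, and Neat1 itself one of -1.26; Cd81 has a ratio of 1.61, and Kcnq1ot1 one of -0.47.

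Counted together, 0 of the 5 members were higher than 1.5-fold in any comparison. In LEKU against LE, 2 of 5 were lower, Pvt1 and Mir17hg, where 11.7% of all genes were lower and 7.06% higher, and 3 of 5 after quantile normalization and in the columns as deposited, with Kcnq1ot1 added. In LEKU against LPS, 4 of 5 were lower, all but Malat1, and 3 of 5 in the 4 scalings that brought Mir17hg inside the limit, where 16.1% of all genes were lower and 20.1% higher; LPS libraries are shared with the comparison of LE and LPS, and LE libraries with that of LEKU and LE. The split of calls over all genes depended on scaling. Of the calls in LE against LPS 56.8% were higher, but 82.1% in the columns as deposited, 68.0% with library totals and 42.0% after quantile normalization. In LEKU against LE 37.5% were higher, against 25.3% in the columns as deposited and 51.3% after quantile normalization, and in LEKU against LPS 55.6%, against 77.0% in the columns as deposited, 72.1% with library totals and 46.0% after quantile normalization.

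Noncoding genes as a class had medians near those of all genes, with more genes past the limit in both directions. Among the 1096 noncoding genes that passed the filter, 268 (24.5%) were higher and 224 (20.4%) lower in LE against LPS. These were 94 (8.58%) and 171 (15.6%) in LEKU against LE, and 240 (21.9%) and 219 (20.0%) in LEKU against LPS. The shares over all genes were 21.7% and 16.6%, 7.06% and 11.7%, and 20.1% and 16.1%. No test of the difference was run. A gene with low counts can pass the filter through the condition where it is highest, and the part of low counts in these shares was not tested. The medians of the noncoding genes were -0.02, -0.05 and 0.00, beside -0.02, -0.04 and 0.01 over all genes. Against this class, 5.02% had a lower LE to LPS ratio than Neat1. For LEKU against LE, 8.39% lay below Pvt1, 9.58% below Mir17hg and 15.9% below Kcnq1ot1.

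**Figure D5:**
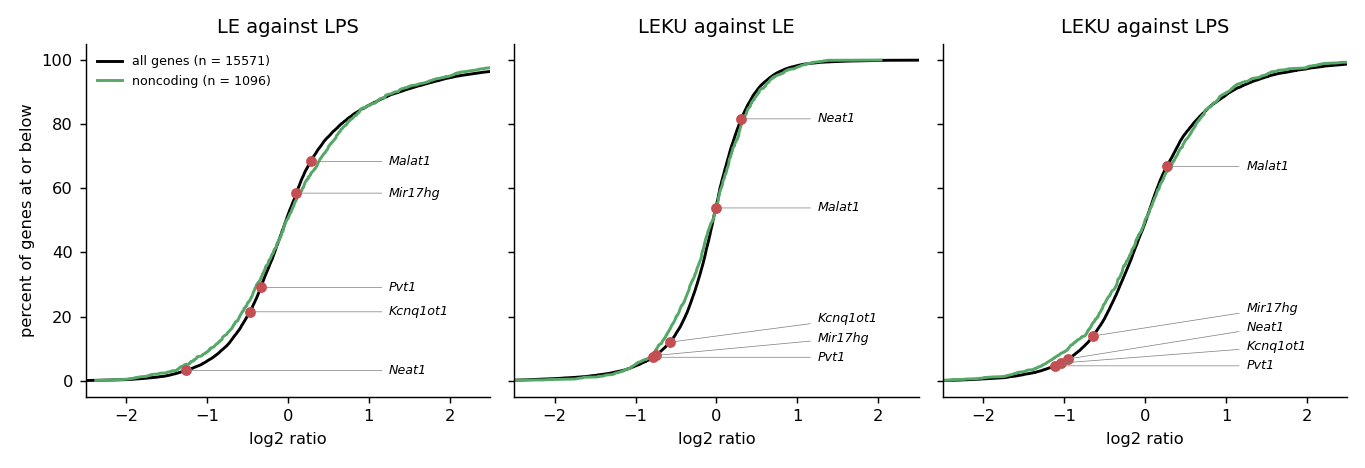
Cumulative percent of genes (vertical axis) by log2 ratio (horizontal axis) for all 15571 genes (black) and 1096 noncoding genes (green) in 3 comparisons, with the members as red points on the curve of all genes. Neat1 lies at 3.23% in LE against LPS, and Pvt1, Mir17hg and Kcnq1ot1 at 7.33%, 7.89% and 12.0% in LEKU against LE.

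Other nuclear long noncoding RNAs were also mixed. Of 19 names searched, 17 were rows of the table and 11 passed the filter. In LE against LPS 2 were higher and 2 lower (median 0.09, which was -0.23 after quantile normalization), in LEKU against LE 1 was higher and 1 lower (median -0.05, which was 0.10 after quantile normalization), and in LEKU against LPS 3 were higher and 3 lower (median 0.09). Meg3 and Rian were under 10 counts in LPS and passed the filter through conditions where they were higher. Without them the counts over 9 genes were 1 higher and 2 lower, 0 and 1, and 1 and 3, with medians of -0.03, -0.14 and -0.05. The shares higher and lower over all genes were 21.7% and 16.6%, 7.06% and 11.7%, and 20.1% and 16.1%. Dleu2, a host of tumour-suppressing miRNAs, stood at 1095, 623 and 424 scaled counts, the same order of conditions as Pvt1 and Kcnq1ot1. Ftx and Jpx, activators of the X inactivation locus, had ratios of -0.69 and -0.32 in LE against LPS and -0.14 and -0.67 in LEKU against LE. Tug1 had ratios of 0.09 and 0.02. Trp53cor1, known as lincRNA-p21, stood at 23.8, 83.4 and 60.9 counts.

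The longest loci had lower ratios over all genes. Genes under 10 kb had a median LE to LPS ratio of 0.00 with 826 of 5519 lower, and the 1525 genes of 100 kb or more a median of -0.26 with 466 of 1525 (30.6%) lower. In LEKU against LPS the medians of these classes were 0.03 and -0.31, with 13.5% and 34.6% lower, and in LEKU against LE -0.03 and -0.13, with 10.3% and 14.2% lower. Pvt1, at 340 kb, is in the longest class and Kcnq1ot1, at 93.1 kb, in that of 30 to 100 kb, whose medians were -0.06, -0.05 and -0.05 in LE against LPS, LEKU against LE and LEKU against LPS. Neat1, at 20.8 kb, is in the class of 10 to 30 kb, with medians of 0.03, -0.02 and 0.09. The share of lower genes was not ordered by length throughout, since the class of 10 to 30 kb had the smallest share in LE against LPS, 12.8%. The part of locus length in the members' values was not tested.

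By the pair of log2 ratios to LPS, Pvt1 and Kcnq1ot1 were the 2 members most alike, at a distance of 0.15, and Neat1 and Malat1 the least, at 1.97. Among 7625 other genes with a mean of at least 500 counts, Rap1gds1 and Gmppb were close to Neat1 (distances of 0.026 and 0.051). Nearest to Pvt1 were Tec, Ldha and Rbm12 (0.056 to 0.096), and nearest to Mir17hg were Elmsan1, A930004J17Rik and Tagln2 (0.024 to 0.044). Kcnq1ot1 was nearest to Chml, Macf1 and Kif15 (0.021 to 0.030), and Malat1 to Wbp4, Map3k11 and Kremen1 (0.009 to 0.010). Within a distance of 0.1 there were 153 genes for Malat1, 16 for Kcnq1ot1, 13 each for Neat1 and Mir17hg, and 3 for Pvt1. These distances are over 3 condition means and are a description.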

How the data were processed

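Polyadenylated RNA was sequenced by the authors (TruSeq, HiSeq2000, single-end). Per the submitters' processing notes, reads were trimmed with Trim Galore and cutadapt 1.2.1, aligned to GRCm38 with TopHat2 2.0.12, counted with HTSeq and analysed with DESeq2 1.6.3. The deposited table is headed normalised counts, but its values are fitted condition means times a depth factor, a signal-like estimate that is never 0. Whether these fits were moderated is not given in the sources used here. The planned test across genes could not be run on such values. The deposited comparison tables hold the authors' fold changes and p-values, which were not used, and a mean normalised count per gene, which was: depth factors were set so that the columns average to it (5421 genes with a mean above 1000, 85.3% of them within 0.1%). Columns were divided by these factors, genes under 10 counts in 4 libraries were left out, and log2 ratios were taken with a pseudocount of 1. Intervals are exact Poisson for levels and exact binomial for ratios, on the counts summed over 4 columns. Noncoding classes, coordinates and lengths came from GENCODE M21 (15493 of 15571 genes matched). The 5 genes are described in full. From each gene list counts are given, with examples chosen mainly as the largest ratios among genes with a mean of at least 100. Examples outside that rule were chosen after their values were seen. The members and lists were chosen with earlier results of these data known. Scripts used Python 3.11.15, numpy 2.4.6, scipy 1.17.1 and pandas 2.3.3 and were tested on simulated data. Labels do not state whether libraries came from separate animals. Some genes of the lists are not reported here.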

Additional observations from a re-analysis of the deposited data

How the results depend on the processing

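No paired analysis was possible because the columns hold fitted condition means without values of single replicates. For the same reason leaving out a replicate and count-based tests were not run. Other depth factors shifted the median of all genes by more than 0.1 (log2) only with library totals (0.13 in LE against LPS, 0.18 in LEKU against LPS) and in the columns as deposited (0.33 and 0.24). With a 2-fold limit, higher and lower genes were 2199 and 951 in LE against LPS, 271 and 723 in LEKU against LE, and 1698 and 942 in LEKU against LPS, and 0 and 2 members were lower in the latter pair of comparisons. A minimum of 50 counts left 12454 genes in place of 15571. Of the 12454, 2176 were higher in LE against LPS, 1180 lower in LEKU against LE and 2069 higher in LEKU against LPS. Library totals gave 1619 genes lower in LEKU against LPS. The columns as deposited gave 5262 higher and 1147 lower in LE against LPS and 1398 lower in LEKU against LPS, with 1 member higher in LE against LPS, Malat1 at 0.62. After quantile normalization 1 member was higher in LEKU against LPS, Malat1 at 0.59. The 2 median-of-ratios scalings were added after the data were seen. Of the 90 single ratios of members under the 6 other scalings, 50 moved outside their counting interval and 40 stayed within it, and none past 1.5-fold changed sign. The pseudocounts moved no ratio outside its interval, and the filters and the 2-fold limit cannot alter one. With a minimum of 50 counts 49.4% of the calls in LEKU against LPS were higher.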
